A study of Drosophila melanogaster with 18 samples.

Results

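Wandering larvae of Drosophila melanogaster that carried the Nxt1 alleles DG05102 and Z2-0488 in trans were compared with wandering larvae of the strain w1118. Each genotype was represented by 3 samples of whole larvae, 6 of the 18 samples of a series that also covers stationary larvae and white prepupae of both genotypes. Wandering larvae were late larvae whose guts were still blue from food dyed with 0.05% bromophenol blue. The labels give the strain of the trans-heterozygotes as yw, so genotype and strain background cannot be told apart in any value below. The labels give neither the sex of the larvae nor the lesions of the alleles. Every gene entry that the authors' test accepted was included, 10898 of the 14542 entries of the deposited gene table, together with 12411 of 32574 isoforms and 11357 of 19024 start-site groups, which are isoforms that begin at the same transcription start.

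Nxt1 is the small partner of sbr, the fly NXF1, and the pair carries spliced messenger RNA through the nuclear pore. In the fly testis, meiotic arrest genes of the tMAC and tTAF complexes switch on a large set of genes in spermatocytes, and larval testes already hold these cells. Wandering larvae have stopped feeding, crawl with muscles built in the embryo, and fill their salivary glands with glue protein before they form a puparium.

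For each genotype the authors deposited 1 FPKM value per gene, a read-pair count divided by transcript length and library size, pooled over the 3 samples. No value per sample and no count was used, so the spread between samples cannot be shown and the depth behind each value is unknown. Every FPKM, fold change and q of a gene, isoform or start-site group below was taken from the authors' deposited table, where q is the adjusted p-value of Cuffdiff, the tool that compared the genotypes. A gene was called higher or lower in the trans-heterozygotes when its q was at most 0.05. The ± after a log2 fold change is a standard error implied by the deposited test statistic. List medians are medians of log2((FPKM + 1) ratio), trans-heterozygotes over w1118, a scale that understates the change of low genes. Of the tested entries 4409 overlap the locus of another entry and 404 merge several symbols. How reads were shared between them is not described, so their values are uncertain. In whole larvae, fewer cells of a type and less RNA per cell cannot be told apart. The summed FPKM over all entries was 748067 in trans-heterozygotes and 772843 in w1118, and the median log2 ratio of all tested genes was -0.01.

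Of the 10898 tested genes, 1284 (11.8%) were called, 1034 lower (9.49%) and 250 higher (2.29%) in the trans-heterozygotes. The lower genes moved further. Their median log2 ratio was -2.08 against 1.16 for the higher genes, 286 of them changed at least 16-fold or were listed at 0 in the trans-heterozygotes, and 10 of the higher genes changed as far or were listed at 0 in w1118. The median lower gene had 2.07 FPKM in trans-heterozygotes and 14.9 FPKM in w1118, and 241 lower genes had under 1 FPKM in trans-heterozygotes and at least 5 FPKM in w1118. The opposite pattern was found in 12 higher genes, with at least 5 FPKM in trans-heterozygotes and under 1 FPKM in w1118. Of the lower genes 74.1% were known only by a CG or CR number, of the higher genes 54.4% and of all tested genes 51.6%. A single isoform was listed for 69.4% of the lower and 69.6% of the higher entries, against 53.2% of all tested entries, and the median locus spanned 2099.5 bases for lower and 2151.5 bases for higher entries, against 3926.5 bases for all tested ones.

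**Figure D1:**
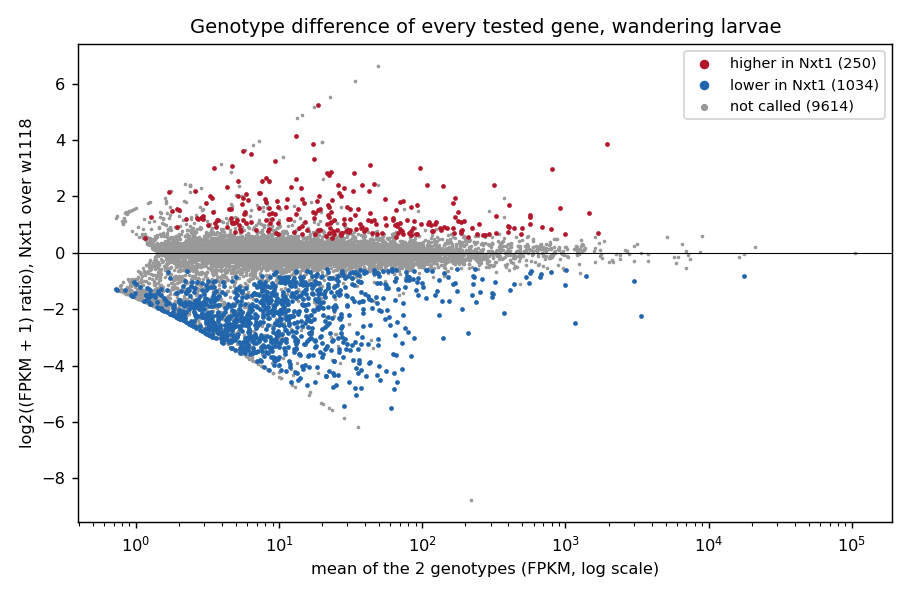
Each point is 1 of the 10898 tested genes of wandering larvae, with the mean FPKM of the 2 genotypes on a log axis and the log2((FPKM + 1) ratio) of the trans-heterozygotes over w1118. The 1034 genes called lower (blue) fill the lower left, where w1118 levels are moderate and trans-heterozygote levels near 0, and the 250 genes called higher (red) lie nearer to the line at 0.

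Most genes with the largest changes have no name beyond a number. Among those, CG2127 fell to 1.70 FPKM in trans-heterozygotes, against 72.9 FPKM in w1118 (q = 2.61e-08), CG12464 to 3.32 FPKM in trans-heterozygotes, against 98.1 FPKM in w1118 (q = 2.22e-10), and CG32371 to 0.513 FPKM in trans-heterozygotes, against 35.0 FPKM in w1118 (q = 5.75e-08). CG31802 and CG42523, whose loci overlap other entries, fell 60.6-fold and 52.3-fold. In the other direction CG9040 rose 7.97-fold, to 1434 FPKM in trans-heterozygotes, against 179.9 FPKM in w1118, CG5550 rose 13.8-fold, to 32.7 FPKM in trans-heterozygotes, against 2.36 FPKM in w1118, and CG11350 rose 24.1-fold, to 33.1 FPKM in trans-heterozygotes, against 1.37 FPKM in w1118.

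Most of the lower genes were also lower at the later stages, which were measured in other animals of the same 2 genotypes. In stationary larvae 917 of them were called lower again, 88.7% of the 1034 and 62.5% of the 1468 lower genes of that stage. In prepupae 858 were lower again, 82.98% of the 1034 and 61.8% of 1388. Of the 250 higher genes, 174 (69.6%, and 33.3% of the 523 higher genes of that stage) were higher again in stationary larvae and 76 (30.4%, and 17.5% of 434) in prepupae, where another 73 were not tested. All 3 stages called 829 genes lower and 68 higher. The strain label of the trans-heterozygotes is the same at every stage, so these repeats do not separate genotype from background.

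The targeted gene was not called, and few genes of its machinery were. Nxt1 (arm 2R, 19696768 to 19699496, on a genome build that the sources used here do not give) had 9.28 FPKM in trans-heterozygotes and 11.6 FPKM in w1118, a log2 fold change of -0.33 ± 0.72 (q = 0.998), and its locus overlaps another entry. The strain markers gave no check, since y was not tested and w is merged with CG32795. The receptor sbr had 40.6 FPKM in trans-heterozygotes and 27.7 FPKM in w1118 and was not called (q = 0.399). nxf2, its relative in the piRNA pathway, had 3.25 FPKM in trans-heterozygotes and 2.68 FPKM in w1118. Among 24 tested export adaptors, THO complex members and export receptors 1 was lower (4.17%, beside 9.49% of all tested genes) and none higher. The list median was 0.10. That member was Ntf-2r, a retrotransposed copy of the import factor gene Ntf-2, with 1.26 FPKM in trans-heterozygotes, against 8.42 FPKM in w1118 (log2 fold change -2.75 ± 0.80, q = 0.00747). Its parent gene Ntf-2 had 180.1 FPKM in trans-heterozygotes and 162 FPKM in w1118 and was not called. Of the nxf relatives nxf4 was called, at 0.479 FPKM in trans-heterozygotes, against 4.18 FPKM in w1118 (q = 0.0243). None of 28 exon junction and splicing factors and none of 24 nucleoporins was called by Cuffdiff, beside 11.8% of all tested genes. In either list 0 members had an unadjusted p of at most 0.05. Their medians were 0.04 and 0.11, and the 24 nucleoporins ranged from -0.33 to 0.50. Of 30 genes known to give rise to circular RNAs 1 was lower (3.33%, beside 9.49% of all tested genes) and none higher, and the median was 0.08. The member called was Pka-C3, a protein kinase catalytic subunit, at 21.0 FPKM in trans-heterozygotes, against 33.8 FPKM in w1118 (q = 0.0268). The other 29 were not called, and 2 of the 30 had an unadjusted p of at most 0.05, both lower.

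Genes of the male germline made up most of the lower genes that any list held, 56 of 107. Of 89 tested entries in 4 lists of late germline genes, 56 (62.9%) were lower and none was higher, beside 9.49% of all tested genes. Their summed level was 736 FPKM in trans-heterozygotes and 2993 FPKM in w1118, and their median log2 ratio was -2.40. The other 978 lower genes are in none of these 4 lists. All 4 lists were chosen with earlier results of these larvae known, and their direction is no independent evidence.

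Few of the regulators that act first were called. Of 15 tested meiotic arrest regulators 1 was lower (6.67%, beside 9.49% of all tested genes) and none higher. The median was -0.27, and the summed level was 71.6 FPKM in trans-heterozygotes and 79.1 FPKM in w1118. Many members have levels of a few FPKM, and a missing call does not show equal levels. aly, of the tMAC complex, had 1.66 FPKM in trans-heterozygotes and 2.45 FPKM in w1118, and can, a testis-specific TAF, had 3.47 FPKM in trans-heterozygotes and 3.44 FPKM in w1118. The neighbouring homeodomain genes vis and achi were not called. vis had 10.5 FPKM in trans-heterozygotes and 8.38 FPKM in w1118, and achi had 14.1 FPKM in trans-heterozygotes and 10.7 FPKM in w1118. The member called was the entry CG31703, at 2.79 FPKM in trans-heterozygotes, against 6.60 FPKM in w1118 (log2 fold change -1.24 ± 0.40, q = 0.019), and it misses a q of 0.01. Another 3 members had an unadjusted p of at most 0.05, all with a lower level in trans-heterozygotes. They were topi, a zinc finger protein of tMAC, nht, a testis-specific TAF, and CG31702. topi had 1.08 FPKM in trans-heterozygotes and 2.66 FPKM in w1118, and nht had 2.00 FPKM in trans-heterozygotes and 5.61 FPKM in w1118. CG31702 had 0.442 FPKM in trans-heterozygotes and 1.85 FPKM in w1118 (log2 fold change -2.07 ± 0.77), and it was called lower in stationary larvae (q = 0.00184). Of 14 tested early germline genes 3 were lower (21.4%, beside 9.49% of all tested genes) and 1 higher (7.14%, beside 2.29%). bol, the Boule RNA-binding protein that permits entry into meiosis, fell 4.01-fold, to 17.8 FPKM in trans-heterozygotes, against 71.4 FPKM in w1118, and twe, the meiotic Cdc25 phosphatase that Boule helps to translate, fell to 3.53 FPKM in trans-heterozygotes, against 11.9 FPKM in w1118. CG9975 fell to 17.0 FPKM in trans-heterozygotes, against 40.6 FPKM in w1118. aub, a Piwi protein of the germline, rose 2.78-fold, to 2.84 FPKM in trans-heterozygotes, against 1.02 FPKM in w1118 (q = 0.0219). vas, the Vasa helicase, was not called, at 4.55 FPKM in trans-heterozygotes and 3.05 FPKM in w1118.

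Genes that act after meiosis fell furthest by list median. In the list of sperm chromatin and tail proteins 19 of 24 tested members were lower and all 24 had a ratio below 0, with a median of -2.99. The protamine genes Mst35Ba and Mst35Bb fell 5.37-fold and 7.76-fold, Mst35Bb to 2.15 FPKM in trans-heterozygotes, against 16.7 FPKM in w1118. Mst77F, a histone-like protein of the sperm nucleus, fell 18.4-fold, to 4.39 FPKM in trans-heterozygotes, against 80.8 FPKM in w1118 (q = 0.000128). Mst98Ca and Mst98Cb, tail proteins, fell 13.1-fold and 4.30-fold, and the abundant ocn (ocnus) fell only 3.33-fold, to 63.4 FPKM in trans-heterozygotes, against 211 FPKM in w1118. fzo, the mitofusin that fuses spermatid mitochondria, was not called despite 1.53 FPKM in trans-heterozygotes and 19.98 FPKM in w1118 (log2 fold change -3.70 ± 2.06, q = 0.361), and it shares its locus with another entry. Among 10 tested leucyl aminopeptidases 8 were lower, and the 2 that were not, Dip-B at 82.3 FPKM in trans-heterozygotes and 75.3 FPKM in w1118 and the entry that merges grsm with CG14384, were not called. S-Lap8 fell 17.5-fold, S-Lap4 22.4-fold and S-Lap5 19.8-fold. Of 15 late cup genes, which are transcribed in spermatids after meiosis, 8 were lower, 11 had an unadjusted p of at most 0.05, and all 15 had a ratio below 0 (median -2.39). soti, which regulates caspase activity in spermatids, fell to 2.02 FPKM in trans-heterozygotes, against 27.7 FPKM in w1118, and schuy and c-cup fell 14.3-fold and 6.66-fold. t-cup had 0.241 FPKM in trans-heterozygotes and 17.7 FPKM in w1118, and with a standard error larger than the change itself (log2 fold change -6.20 ± 16.75) it was not called.

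Testis paralogues of genes used in every cell separated into those that fell and those that did not. Of 41 tested members 22 were lower (53.7%, beside 9.49% of all tested genes) and none higher, and the median was -1.83. The proteasome subunits Prosalpha6T and Prosbeta5R fell 10.1-fold and 14.1-fold, and Pros28.1A fell 17.0-fold. By contrast, all 30 tested subunits of the general proteasome were uncalled, with 3 at an unadjusted p of at most 0.05 (all lower) and 29 of 30 at a ratio below 0 (median -0.23). The testis hexokinase Hex-t2 fell 15.8-fold and the testis phosphoglycerate mutase Pglym87 fell 71.8-fold. Their general relatives were not lower, with Hex-A at 29 FPKM in trans-heterozygotes and 31.5 FPKM in w1118, and Pglym78 at 105 FPKM in trans-heterozygotes and 61.6 FPKM in w1118. The cap-binding paralogues eIF4E-3 and eIF4E-5 fell 1.73-fold and 3.85-fold, and eIF4E-6 was not called, at 5.37 FPKM in trans-heterozygotes and 3.42 FPKM in w1118. The ribosomal paralogue RpL10Aa fell 28.0-fold, but RpL22-like, RpS5b and RpL37b were not called, and each had a higher level in trans-heterozygotes, RpL22-like at 17.5 FPKM in trans-heterozygotes and 12.0 FPKM in w1118. Cyt-c-d, the testis cytochrome c, fell 3.35-fold.

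**Figure D2:**
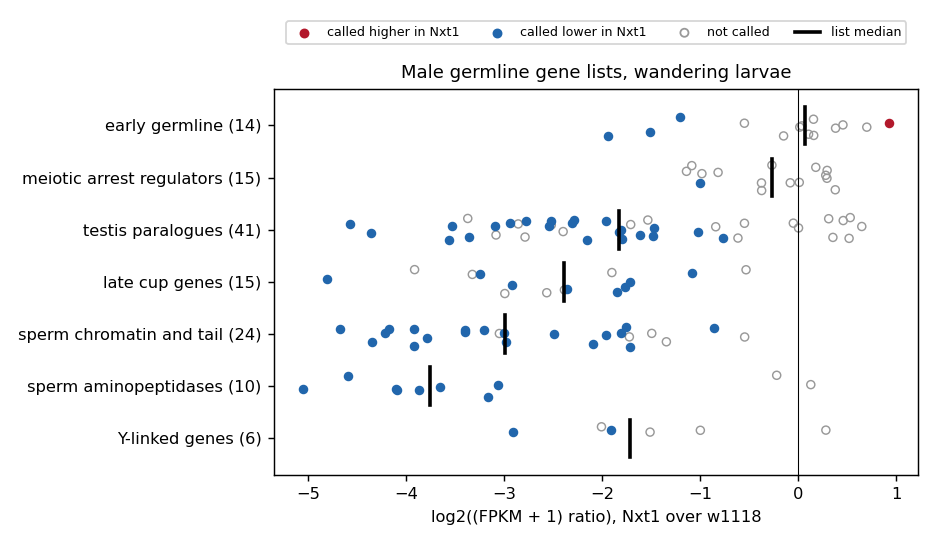
Each point is 1 tested gene entry of wandering larvae, placed by its log2((FPKM + 1) ratio) of the trans-heterozygotes over w1118, with the number tested after each list name. Filled points were called, open points were not, and black bars are list medians, which run from 0.07 for early germline genes and -0.27 for meiotic arrest regulators to -3.76 for sperm aminopeptidases.

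Lists that are not germline lists by name also held lower genes known from the testis, such as Hsp60B, Atg8b and TrxT. In the heat shock and chaperone list 9 of 27 members were lower (33.3%, beside 9.49% of all tested genes) and none was higher. Hsp60B, which spermatids need to separate, fell 39.1-fold and Hsp60C fell 10.8-fold, to 6.34 FPKM in trans-heterozygotes, against 68.4 FPKM in w1118. Hsc70-2 fell 6.31-fold and Hsc70-1 was listed at 0 in trans-heterozygotes and at 6.83 FPKM in w1118 (q = 1.72e-08). The general chaperones Hsc70-4, Hsp83 and Hsp60 were not called. Hsc70-4 had 923 FPKM in trans-heterozygotes and 933 FPKM in w1118, and Hsp60, the general relative of Hsp60B, had 43.8 FPKM in trans-heterozygotes and 36.9 FPKM in w1118. The remaining lower members were Hsp67Bc, a small heat shock protein, at 56.2 FPKM in trans-heterozygotes, against 99.5 FPKM in w1118, and 4 near-identical Hsp70B copies, whose reads cannot be told apart. Hsp70Aa, at 5.71 FPKM in trans-heterozygotes and 7.06 FPKM in w1118, was not called (q = 0.907). Nor was the entry that merges it with Hsp70Ab, at 5.73 FPKM in trans-heterozygotes and 7.07 FPKM in w1118 (q = 0.938). Atg8b, the testis copy of the autophagy protein Atg8, was listed at 0 in trans-heterozygotes and at 10.7 FPKM in w1118, while Atg8a had 401 FPKM in trans-heterozygotes and 456 FPKM in w1118. TrxT, the testis thioredoxin, fell 3.35-fold, and Trx-2, the general one, had 301 FPKM in trans-heterozygotes and 289 FPKM in w1118. Of 6 tested Y-linked entries 2 were lower (33.3%, beside 9.49% of all tested genes), and the list median was -1.71. These were CG40948, listed at 0 in trans-heterozygotes and at 6.51 FPKM in w1118, and ARY, at 0.528 FPKM in trans-heterozygotes, against 4.76 FPKM in w1118. The large Y-linked dynein genes kl-2, kl-3 and kl-5 were not tested. In the dosage compensation list 1 of 12 genes was higher (8.33%, beside 2.29% of all tested genes) and none lower. This was roX1, the male X chromosome RNA, at 322 FPKM in trans-heterozygotes, against 209 FPKM in w1118 (q = 0.0449). The related roX2 had 42.3 FPKM in trans-heterozygotes and 40.6 FPKM in w1118. The share of males in the samples is not given, and its part in these values was not tested.

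Some genes of the muscle thick and thin filaments rose, and most other muscle genes were not called. Of 12 tested genes in the thick filament list 4 rose and none fell (beside 2.29% of all genes higher). Their summed level was 2727 FPKM in trans-heterozygotes and 2230.1 FPKM in w1118. This list also counts nonmuscle myosin, with sqh at its lowest ratio (-0.32), so its values are not of muscle alone. The essential light chain Mlc1 rose 1.90-fold, to 524 FPKM in trans-heterozygotes, against 277 FPKM in w1118 (log2 fold change 0.92 ± 0.20), and the regulatory light chain Mlc2 rose 2.17-fold. Mhc, the only muscle myosin heavy chain gene of the fly, rose with them (log2 fold change 1.72 ± 0.22, q = 1.16e-12). The nonmuscle myosin genes were not called, with zip, the heavy chain, at 258 FPKM in trans-heterozygotes and 298 FPKM in w1118 and sqh, its light chain, at 153 FPKM in trans-heterozygotes and 192 FPKM in w1118. Prm, paramyosin, had 237 FPKM in trans-heterozygotes and 155 FPKM in w1118 and was not called. In the thin filament 2 of 14 genes rose (14.3%, beside 2.29% of all tested genes) and none fell. These were the larval muscle actin Act57B, at 754 FPKM in trans-heterozygotes, against 369 FPKM in w1118 (q = 1.73e-05), and the troponin C gene TpnC47D. Others stayed uncalled, such as Tm2, a tropomyosin, at 282 FPKM in trans-heterozygotes and 187 FPKM in w1118. So did Act5C, a cytoplasmic and not a muscle actin, at 1746 FPKM in trans-heterozygotes and 1787 FPKM in w1118. Among 17 Z-disc and LIM genes 2 rose (11.8%, beside 2.29% of all tested genes) and 2 fell (11.8%, beside 9.49%). Mp20, a calponin relative of muscle, rose 2.49-fold, to 464 FPKM in trans-heterozygotes, against 186 FPKM in w1118, and Mlp60A rose 2.29-fold. abba, the TRIM32 homologue also called thin that keeps larval muscle intact, fell 2.04-fold, and cher, filamin, fell 2.18-fold, to 102 FPKM in trans-heterozygotes, against 223 FPKM in w1118 (q = 0.000116). Both loci overlap other entries. Of 9 calcium handling genes 1 rose (11.1%, beside 2.29% of all tested genes) and none fell. The ryanodine receptor Rya-r44F was the 1 that rose, at 1.55 FPKM in trans-heterozygotes, against 0.75 FPKM in w1118. The SERCA pump gene Ca-P60A had 160.4 FPKM in trans-heterozygotes and 113 FPKM in w1118.

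Attachment genes were almost all uncalled. Of 20 integrin and attachment genes 1 was lower (5%, beside 9.49% of all tested genes), the entry that merges mew with CG15742. The integrin beta chain gene mys had 86.2 FPKM in trans-heterozygotes and 78.7 FPKM in w1118. LanA, the laminin alpha chain, fell 1.94-fold, to 52.1 FPKM in trans-heterozygotes, against 101 FPKM in w1118 (log2 fold change -0.96 ± 0.21), whereas its partner chains LanB1 and LanB2 were not called. LanB1 had 58.9 FPKM in trans-heterozygotes and 64.0 FPKM in w1118, and vkg, a collagen IV chain, had 29.8 FPKM in trans-heterozygotes and 26.7 FPKM in w1118.

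The list of sugar enzymes, not all of them digestive, gave the highest share of higher genes of any list with more than 10 tested members. Of 21 amylases, maltases and other sugar enzymes 10 rose (47.6%, beside 2.29% of all tested genes) and none fell, with a median of 0.71. The maltase genes Mal-A1, Mal-A2, Mal-A3 and Mal-A4 lie side by side on arm 2R (4334974 to 4348389) and all rose, Mal-A1 to 44.1 FPKM in trans-heterozygotes, against 10.1 FPKM in w1118, and Mal-A4 to 5.90 FPKM in trans-heterozygotes, against 0.699 FPKM in w1118. The related maltases Mal-A5 and Mal-A6 were not called, Mal-A6 at 69.5 FPKM in trans-heterozygotes and 67.4 FPKM in w1118. Amyrel, an amylase relative, rose 3.08-fold (q = 3.37e-08), and the near-identical Amy-d and Amy-p rose 8.31-fold and 5.47-fold. Of 36 proteases 7 were higher (19.4%, beside 2.29% of all tested genes) and 3 lower (8.33%, beside 9.49%), with a median of 0.22. Jon74E rose 5.32-fold, to 236 FPKM in trans-heterozygotes, against 44.4 FPKM in w1118, and epsilonTry rose 2.55-fold, to 811 FPKM in trans-heterozygotes, against 318 FPKM in w1118. Jon25Bi and Jon25Bii rose 2.42-fold and 1.74-fold, but Jon65Aiv and Jon65Aiii were not called. Jon65Aiv had 3497 FPKM in trans-heterozygotes and 2795 FPKM in w1118. The neighbours Jon66Ci and Jon66Cii fell, Jon66Ci to 802 FPKM in trans-heterozygotes, against 1228 FPKM in w1118, and Jon66Cii 22.3-fold. In lipid uptake Npc2e, of the sterol-binding NPC2 family, rose 2.39-fold, the 1 call among 19 genes (5.26%, beside 2.29% of all tested genes). Of 31 peritrophic and chitin genes 2 rose (6.45%, beside 2.29% of all tested genes) and 1 fell (3.23%, beside 9.49%). The chitinases Cht9 and Cht12 changed in opposite directions. Cht9 rose to 12.7 FPKM in trans-heterozygotes, against 2.13 FPKM in w1118, and Cht12 fell to 3.56 FPKM in trans-heterozygotes, against 18.4 FPKM in w1118. The mucin gene Muc68Ca rose 1.81-fold.

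Detoxification genes rose in part. Of 33 glutathione transferases 7 rose (21.2%, beside 2.29% of all tested genes) and none fell (median 0.28). Of 62 cytochrome P450 genes 12 rose (19.4%) and 7 fell (11.3%, beside 9.49% of all tested genes), with a median of 0.30. GstE3, GstE5, GstE6 and GstE7 are consecutive tested genes on arm 2R (14288222 to 14295193) and rose 2.04-fold, 3.06-fold, 3.96-fold and 3.17-fold. GstE8 and GstE9, of the same family, were not called, GstE9 at 7.36 FPKM in trans-heterozygotes and 6.19 FPKM in w1118. GstS1, an abundant member, had 265 FPKM in trans-heterozygotes and 278 FPKM in w1118. The P450 genes Cyp6a23 and Cyp6a17 are neighbours on arm 2R (10763338 to 10765159 and 10761459 to 10763063) and went apart, Cyp6a23 to 77.7 FPKM in trans-heterozygotes, against 7.97 FPKM in w1118, and Cyp6a17 to 0.246 FPKM in trans-heterozygotes, against 10.3 FPKM in w1118. Cyp12c1 and Cyp4e3 rose 3.10-fold and 2.32-fold, whereas Cyp312a1, Cyp6a18 and Cyp6w1 fell 4.21-fold, 3.21-fold and 2.62-fold. The insecticide-resistance gene Cyp6g1 had 129 FPKM in trans-heterozygotes and 137 FPKM in w1118 and was not called. MtnA, a metallothionein, rose 1.80-fold, to 1028 FPKM in trans-heterozygotes, against 569.6 FPKM in w1118, and Jafrac1, a peroxiredoxin, rose 1.87-fold. 

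Some genes of sugar catabolism rose. Of 20 genes of glycolysis and lactate metabolism 6 rose (30%, beside 2.29% of all tested genes), none fell and 14 were not called. Of the 20, 16 had a ratio above 0, and the median was 0.48. Eno, enolase, had 294 FPKM in trans-heterozygotes, against 187 FPKM in w1118 (log2 fold change 0.65 ± 0.21), Pgi, phosphoglucose isomerase, 77.9 FPKM in trans-heterozygotes, against 52.8 FPKM in w1118, and Pglym78 rose 1.71-fold. ImpL3, lactate dehydrogenase, rose 1.99-fold, to 74.4 FPKM in trans-heterozygotes, against 37.4 FPKM in w1118 (q = 0.000783), and was the 1 member still called at a q of 0.01. Gpdh, glycerol-3-phosphate dehydrogenase, and Men, malic enzyme, rose 1.84-fold and 1.66-fold. Ald, aldolase, and Tpi, triose phosphate isomerase, were not called. Ald had 329.5 FPKM in trans-heterozygotes and 220.4 FPKM in w1118. In the pentose phosphate branch Zw, glucose-6-phosphate dehydrogenase, was not called, at 15.05 FPKM in trans-heterozygotes and 15.7 FPKM in w1118. Of 12 ATP synthase genes 11 had a ratio above 0 (median 0.31) and 1 was called higher (8.33%, beside 2.29% of all tested genes). This was ATPsyn-Cf6, at 336 FPKM in trans-heterozygotes, against 215 FPKM in w1118 (q = 0.0483). Of 91 ribosomal protein genes RpL12 and RpL14 rose 1.61-fold and 1.57-fold, and the median was 0.09.

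**Figure D3:**
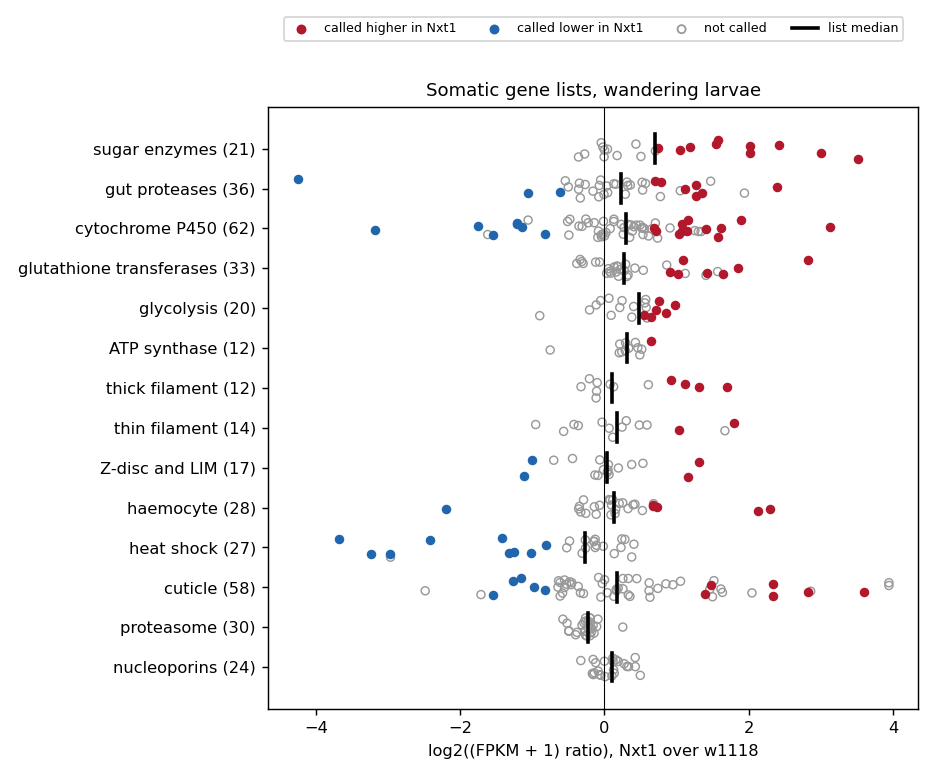
Each point is 1 tested gene entry of wandering larvae, placed by its log2((FPKM + 1) ratio) of the trans-heterozygotes over w1118, with the number tested after each list name, filled where called and open where not. Black bars are list medians, the highest being 0.71 for sugar enzymes and the lowest -0.26 for heat shock genes. Proteasome subunits form a narrow cluster around -0.23 with no call.

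Of 28 haemocyte and melanisation genes 5 rose (17.9%, beside 2.29% of all tested genes) and 1 entry fell (3.57%, beside 9.49%). The prophenoloxidases proPO45 and proPO-A1, made by crystal cells, rose 4.72-fold and 5.34-fold, and the plasmatocyte genes Hml, Sr-CI and Pxn rose 1.72-fold, 1.63-fold and 1.63-fold. Other plasmatocyte receptors were not called, with eater at 25.7 FPKM in trans-heterozygotes and 33.2 FPKM in w1118, and nimC1 at 11.0 FPKM in trans-heterozygotes and 6.51 FPKM in w1118. The entry that fell merges gcm with CG31709, and its fall cannot be given to gcm. Of the enzymes that make and modify dopamine, no list was drawn up, and 3 genes chosen after their values were seen were called lower. These were ple, tyrosine hydroxylase, 2.57-fold lower (log2 fold change -1.36 ± 0.25), Ddc, dopa decarboxylase, 2.88-fold lower, and e, the beta-alanyl dopamine synthase ebony, 3.76-fold lower, at 8.06 FPKM in trans-heterozygotes, against 30.3 FPKM in w1118. Both ple and Ddc had been placed in the neuronal list, where the other calls were Sytalpha, a synaptotagmin, 18.7-fold higher, and the merged GluRIIA entry, lower. The remaining 32 of 36 were not called, among them the neuronal RNA-binding gene elav at 28.2 FPKM in trans-heterozygotes and 20.2 FPKM in w1118. Of 58 tested cuticle protein genes 6 rose (10.3%, beside 2.29% of all tested genes) and 5 fell (8.62%, beside 9.49%), and the symbol pattern of this list was narrowed after values were seen. The 5 lower ones included the abundant Lcp1, at 12647 FPKM in trans-heterozygotes, against 22439 FPKM in w1118. Cpr49Ac and Cpr78E fell 1.97-fold and 2.22-fold, and the summed level of the list was 26667 FPKM in trans-heterozygotes and 42408 FPKM in w1118. The 6 higher ones included Cpr11A, at 20.9 FPKM in trans-heterozygotes, against 3.32 FPKM in w1118.

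Few immune and stress peptide genes were called. Of 16 antibacterial peptide genes 1 rose (6.25%, beside 2.29% of all tested genes) and 1 fell (6.25%, beside 9.49%). Dpt, a diptericin, rose 2.39-fold and AttA, an attacin, fell 3.72-fold. Drs, drosomycin, was not called, at 53.6 FPKM in trans-heterozygotes and 84.9 FPKM in w1118. TotA, a Turandot stress peptide, fell 5.68-fold (log2 fold change -2.51 ± 0.21). None of 8 tested IM peptides was called by Cuffdiff, although 7 had a ratio below 0 (median -1.33) and 3 an unadjusted p of at most 0.05, such as IM3 at 6.63 FPKM in trans-heterozygotes and 36.2 FPKM in w1118. PGRP-SC2, an amidase of the gut that degrades peptidoglycan, rose 3.29-fold, and LysX, a lysozyme, fell 2.03-fold.

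Few endocrine, salivary gland, fat body and growth genes were called, beside 11.8% called of all tested genes. Cuffdiff called 0 of 7 salivary glue genes (0 at an unadjusted p of at most 0.05), with Sgs3 at 17643 FPKM in trans-heterozygotes and 17948 FPKM in w1118. It called 0 of 16 serum and fat body genes, of which 1 was higher and 1 lower at that unadjusted p, and Lsp2 had 8775 FPKM in trans-heterozygotes and 8622 FPKM in w1118. It called 0 of 25 insulin, TOR and juvenile hormone genes (1 higher at that p), 0 of 25 wing disc and proliferation genes (0 at that p), 0 of 20 cell death and stress regulators (3 higher at that p), 0 of 9 histone entries (1 higher, 1 lower) and 0 of 75 mitochondrial ribosomal protein genes (1 higher). InR, the insulin receptor, had 13.9 FPKM in trans-heterozygotes and 12.5 FPKM in w1118, and the caspase inhibitor th had 142 FPKM in trans-heterozygotes and 139.8 FPKM in w1118. Of 15 ecdysone synthesis genes the nuclear receptor Hr4 was the 1 called, at 12.4 FPKM in trans-heterozygotes, against 20.4 FPKM in w1118 (q = 0.0204), and phm, a P450 of the prothoracic gland, had 9.69 FPKM in trans-heterozygotes and 8.88 FPKM in w1118. Of 28 ecdysone receptor and early response genes 1 was higher (3.57%, beside 2.29% of all tested genes) and 2 were lower (7.14%, beside 9.49%). At an unadjusted p of at most 0.05, 3 were higher and 5 lower. EcR, the ecdysone receptor, was not called, at 65.1 FPKM in trans-heterozygotes and 68.6 FPKM in w1118. In the 71E cluster of late salivary gland genes none of 6 genes was called, all 6 had a ratio below 0 (median -1.13), and 2 had an unadjusted p of at most 0.05.

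Of the 12411 tested isoforms 914 (7.36%) were called, 820 lower (6.61%) and 94 higher (0.757%), and of the 11357 start-site groups 982 (8.65%), 889 lower (7.83%) and 93 higher (0.819%). Of the lower genes 913 had a tested start-site group, and 844 of them (92.4%) were also called lower through it. Of the higher genes 108 had a tested group and 80 (74.1%) were called higher through it. Through isoforms, 742 of the 871 lower genes with a tested isoform (85.2%) were called lower, and 63 of the 106 higher genes with one (59.4%) were called higher. The other 142 higher genes had no tested start-site group, and 144 had no tested isoform. Isoforms of 92 genes were called although the gene was not, in 28 genes higher ones and in 68 lower ones, and start-site groups of 47 such genes. Isoforms were called in both directions in 6 genes, start-site groups in 1 gene, CG42671.

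Cp1, the cathepsin L gene, whose entry (CG42806,Cp1) is merged with CG42806 and was not called, had isoforms called in both directions. Isoform TCONS_00007222 was listed at 0 in trans-heterozygotes and at 652 FPKM in w1118 (q = 2.51e-17). Isoform TCONS_00007223 was the reverse, at 395 FPKM in trans-heterozygotes and listed at 0 in w1118 (q = 2.35e-22). The same pair stood at 48.6 and 649 FPKM in trans-heterozygous stationary larvae, against 896 and 0.637 FPKM in w1118 ones. In prepupae it stood at 23.4 and 889 FPKM in trans-heterozygotes, against 900.2 FPKM and a listing at 0 in w1118. The pattern was present at every stage.

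HIP-R, a relative of the Hsc70-interacting protein, also had isoforms called in both directions. TCONS_00027520 fell to 30.8 FPKM in trans-heterozygotes, against 79.9 FPKM in w1118 (q = 2.71e-06), and TCONS_00027521 was at 27.7 FPKM in trans-heterozygotes and listed at 0 in w1118 (q = 2.71e-09). Uhg5, a host gene of small nucleolar RNAs whose entry is merged with them, had TCONS_00007333 at 39.9 FPKM in trans-heterozygotes and at 0 in w1118 (q = 2.07e-11), while TCONS_00007334, with 0.0808 FPKM in trans-heterozygotes and 35.2 FPKM in w1118, was not called. Got1, aspartate aminotransferase, had TCONS_00007527 lower, listed at 0 in trans-heterozygotes and at 31.6 FPKM in w1118 (q = 5.15e-06), and its untested TCONS_00007528 had 124 FPKM in trans-heterozygotes and 65.7 FPKM in w1118. Pxd, a peroxidase, had TCONS_00020376 at 20.1 FPKM in trans-heterozygotes and at 0 in w1118, and srpk79D, an SR protein kinase, had TCONS_00015227 at 2.51 FPKM in trans-heterozygotes and at 0 in w1118, and TCONS_00015228 at 0 in trans-heterozygotes and at 4.59 FPKM in w1118. For Jupiter, a microtubule-binding protein, 1 of several isoforms, TCONS_00023590, fell to 6.66 FPKM in trans-heterozygotes, against 96.4 FPKM in w1118 (log2 fold change -3.85 ± 0.79), while the most abundant one, TCONS_00023598, had 155 FPKM in trans-heterozygotes and 149.6 FPKM in w1118. The start-site group with the same values fell alike (q = 3.11e-05). wmd and CG18815 each had a lower start-site group, listed at 0 in trans-heterozygotes and at 7.28 and 14.1 FPKM in w1118. At later stages the wmd group was again at 0 in trans-heterozygotes. It had 6.24 FPKM in stationary w1118 larvae (not tested) and 3.47 FPKM in w1118 prepupae (not called, q = 0.0987). The CG18815 group had 0.00106 FPKM in stationary w1118 larvae and was listed at 0 in w1118 prepupae, and was tested at neither stage. Later stages are given here only for Cp1 and these groups.

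**Figure D4:**
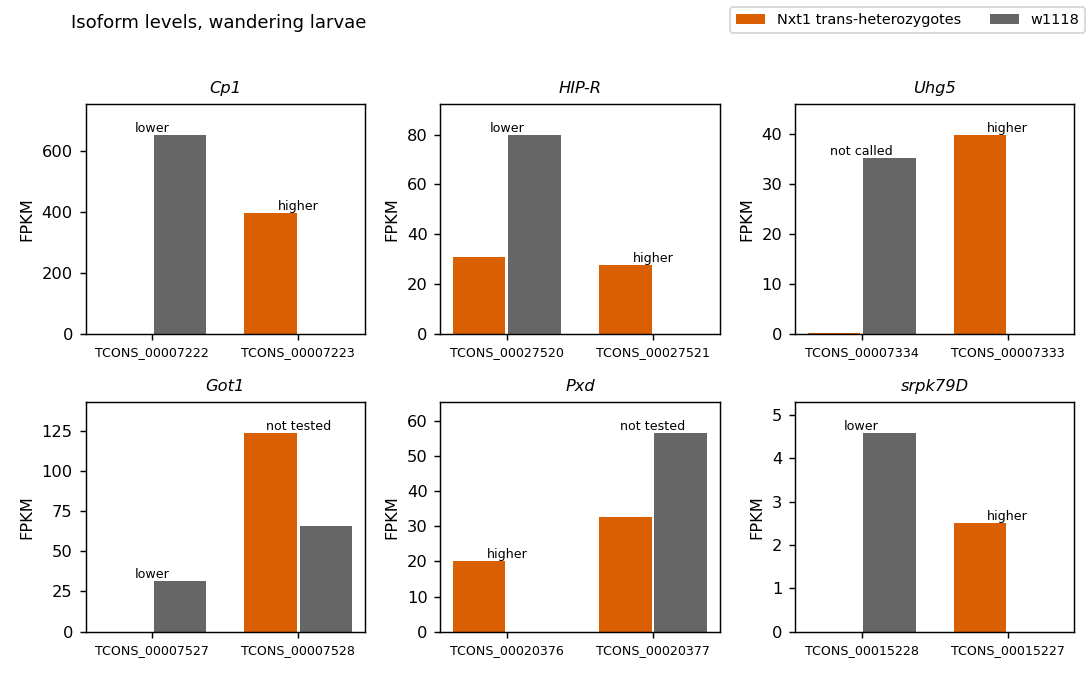
Bars give the deposited FPKM of 2 isoforms of each of 6 genes in wandering larvae, in the trans-heterozygotes (orange) and in w1118 (grey), with the authors' call above each pair. A missing bar is a listing at 0, as for the Cp1 isoforms TCONS_00007222 in trans-heterozygotes and TCONS_00007223 in w1118.

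The authors also tested the relative use of isoforms within a start site, of start sites and of coding sequences, with a distance that is the root of the Jensen-Shannon divergence. It is 0 for equal use and 0.833 where the genotypes share nothing. Of 1486 start-site groups 40 (2.69%) differed in splicing, of 1220 genes 56 (4.59%) in promoter use and of 1190 genes 23 (1.93%) in coding-sequence use, 98 gene entries in all. For 75 of these the gene itself was not called. The largest possible distance was reached in 7 tests. They included the splicing tests of Cp1, mRpS16, a mitochondrial ribosomal protein, prominin-like and eIF-4E, the general cap-binding protein, and the promoter test of mthl8, a methuselah-like receptor. The gene level of eIF-4E was 313 FPKM in trans-heterozygotes and 312 FPKM in w1118, and it was not called. That of mRpS16 was only 4.84 FPKM in trans-heterozygotes and 6.12 FPKM in w1118, and its log2 fold change of -0.34 ± 1.73 was poorly determined. sls, the titin relative of the sarcomere, differed in splicing (distance 0.308, q = 0.0235) and in coding sequence (q = 0.0300) although the gene, at 11.2 FPKM in trans-heterozygotes and 12.2 FPKM in w1118, was not called, and cher differed in promoter use (distance 0.265, q = 0.0354). bol differed in coding-sequence use (distance 0.400, q = 0.00132).

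Lower genes were found on every large arm, and some were adjacent. The share lower was 12.0% on 2L, 8.92% on 2R, 9.67% on 3L, 9.71% on 3R and 7.03% on X, and 0 of 76 tested genes on 4 were lower. Runs of at least 4 consecutive tested genes called in the same direction numbered 16, with 72 genes, 13 of them runs of lower genes and 3 of higher genes. The longest run held 8 lower entries on 3R (21599056 to 21638924) and ended in Acam, a calmodulin relative of the testis, which had 1.37 FPKM in trans-heterozygotes, against 47.1 FPKM in w1118. Its other members have CG numbers only. A run of 6 on 3R (9974230 to 9989347) held CG42500, at 1013 FPKM in trans-heterozygotes, against 1783 FPKM in w1118, a level far above that of its neighbours in the run, whose w1118 levels ran from 5.86 to 26.4 FPKM. A run of 5 on 2L (17501467 to 17555765) began with Dhc36C, a dynein heavy chain, at 0.219 FPKM in trans-heterozygotes, against 3.00 FPKM in w1118, and another run of 5 on X (6278253 to 6418356) consisted of CG33664 and its neighbours CG33666 to CG33669. The sperm tail genes dj and djl stood in a run of 4. The higher runs were the maltases and glutathione transferases given above and 4 genes on 3R (17570988 to 17595023) led by CG31343, at 54.9 FPKM in trans-heterozygotes, against 11.2 FPKM in w1118, and CG31233, at 39.5 FPKM in trans-heterozygotes, against 4.97 FPKM in w1118. Overlapping entries may share reads, and calls of neighbours are then not independent.

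Some effects differed between stages. The genotype effect was compared between stages gene by gene with a two-sided normal test of the difference of the deposited log2 fold changes. It was adjusted over the genes tested at both stages that had a finite fold change and standard error at each. Genes listed at 0 in 1 genotype have no finite fold change and were left out, CR40596 among them. Against stationary larvae 69 of 10459 genes (0.66%) differed, 60 with a more negative effect in wandering larvae (0.574%) and 9 with a more positive one (0.0861%). Against prepupae 107 of 10096 genes (1.06%) differed, 62 more negative (0.614%) and 45 more positive (0.446%). These comparisons share the wandering samples. TotA, with a log2 fold change of -2.51 ± 0.21 in wandering larvae, had 0.00 ± 0.22 in stationary larvae and -0.74 ± 0.15 in prepupae (q of the difference 4.85e-13 and 1.12e-08). Hsp70Bb, 1 of the near-identical copies, was lower in wandering larvae, at 3.20 FPKM in trans-heterozygotes, against 10.2 FPKM in w1118, but higher in stationary larvae, at 99.0 FPKM in trans-heterozygotes, against 11.2 FPKM in w1118, and in prepupae, at 60.8 FPKM in trans-heterozygotes, against 35.0 FPKM in w1118. TotC, uncalled at 7.18 FPKM in trans-heterozygotes and 17.5 FPKM in w1118, had in stationary larvae 129 FPKM in trans-heterozygotes, against 3.91 FPKM in w1118 (q of the difference 4.13e-10).

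Of the 1034 lower genes 15 were called higher at 1 or both later stages, and of the 250 higher genes 6 were called lower. Ddc was lower in wandering larvae (log2 fold change -1.52 ± 0.23), not called in stationary larvae (-0.31 ± 0.21) and higher in prepupae (0.56 ± 0.18). The effect on e likewise differed from that in prepupae by -2.10 ± 0.32 (q of the difference 5.75e-08). In wandering larvae CG13722 had 88.1 FPKM in trans-heterozygotes, against 173 FPKM in w1118, and it was higher in prepupae, at 113 FPKM in trans-heterozygotes, against 62.9 FPKM in w1118. Likewise CG10570 had 361 FPKM in trans-heterozygotes, against 758 FPKM in w1118, and in prepupae 466 FPKM in trans-heterozygotes, against 317 FPKM in w1118. CG42500 was higher in stationary larvae, at 1807 FPKM in trans-heterozygotes, against 949 FPKM in w1118. In the other direction, the P450 genes Cyp9b2, Cyp12d1-d and Cyp12d1-p rose 2.07-fold, 3.25-fold and 2.72-fold in wandering larvae and were called lower in prepupae, where Cyp9b2 had 59.4 FPKM in trans-heterozygotes, against 141 FPKM in w1118. NT5E-2, a 5′-nucleotidase relative, did the same, with 1.18 ± 0.26 in wandering larvae and -0.62 ± 0.22 in prepupae. CG31343 and CG31233, of the run on 3R, were higher in wandering and stationary larvae and not called in prepupae, where CG31343 had 4.31 FPKM in trans-heterozygotes, against 6.95 FPKM in w1118. The glue gene Sgs5, uncalled here (5750.1 FPKM in trans-heterozygotes and 6428 FPKM in w1118, log2 fold change -0.16 ± 0.25), had 1.16 ± 0.21 in stationary larvae and 2.41 ± 0.26 in prepupae (q of the difference 0.0112 and 7.03e-10). For Amy-p the effect was 2.45 ± 0.22 in wandering larvae and 0.26 ± 0.44 in prepupae (q of the difference 0.00198). The effect on Mhc was 1.72 ± 0.22 in wandering larvae, compared with 3.02 ± 0.32 in stationary larvae and 0.61 ± 0.45 in prepupae, and the differences did not pass the test (q of the difference 0.0964 and 0.688). Nor did those of Mlc1, Mlc2, TpnC47D and Act57B against stationary larvae, where all 4 effects were more positive (q of the difference 0.0723, 0.0789, 0.454 and 0.0789).

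**Figure D5:**
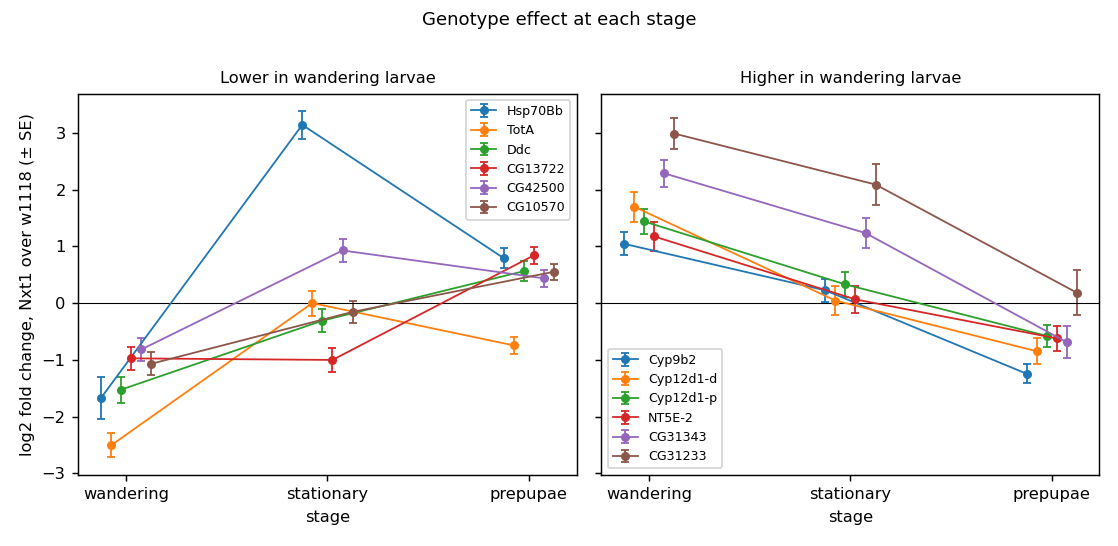
Points are the deposited log2 fold changes of the trans-heterozygotes over w1118 at the 3 stages, with bars of 1 standard error, for 6 genes called lower (left) and 6 called higher (right) in wandering larvae. Hsp70Bb, Ddc, CG13722, CG42500 and CG10570 cross the line at 0 at a later stage and TotA reaches it in stationary larvae, and all 6 genes on the right have a smaller or negative effect in prepupae.

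Genes listed at 0 in 1 genotype and at 5 FPKM or more in the other numbered 82 among the tested ones, of which 30 were called. In 27 of these the 0 was in the trans-heterozygotes, and in 3 it was in w1118. CG42597, CG31275 and CG31958 were listed at 0 in trans-heterozygotes and at 16.9, 15.6 and 9.30 FPKM in w1118. The 3 at 0 in w1118 were CR40596 at 37.4 FPKM in trans-heterozygotes, Cpr47Eg, a cuticle gene, at 11.1 FPKM and CG14143 at 7.04 FPKM. CR40596 was called in the opposite direction in stationary larvae, at 0.0950 FPKM in trans-heterozygotes, against 29.05 FPKM in w1118 (q = 0.00083), and again higher in prepupae, at 29.2 FPKM in trans-heterozygotes and a listing at 0 in w1118. Listings at 0 were also frequent among small RNA entries, which include spliceosomal and nucleolar RNAs that every cell uses. Of 61 tested ones 38 were listed at 0 in 1 genotype, and none of the 61 was called. Whether a 0 in these values is a failed estimate was not tested, for small RNAs or for other genes.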

How the data were processed

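Total RNA of whole wandering larvae was sequenced as 100 bp paired ends, 3 samples per genotype, per the labels' protocols. Bowtie 1.1.1, Cufflinks and Cuffdiff are named in the submitters' processing notes, while the sources used here do not give genome build, annotation or counting rules. The authors deposited 1 pooled FPKM per genotype for each gene, isoform and start-site group, with a log2 fold change of the pooled values, as the column headers state. The deposited tables also give a p-value and a q-value, used as they stand, since no values per sample allowed a fit of counts. The deposited score columns hold the test statistic, whose sign was opposite to that of the fold change, and the root of the Jensen-Shannon divergence. Nothing in the labels says that the samples came from separate cultures or animals, so p-values measure only the spread between these samples, which may be technical, and neither depth nor precision per sample is known.

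Rows that passed the authors' test (status OK) were used, with a call at q of at most 0.05, a pseudocount of 1 FPKM, and standard errors from fold change and statistic. The genotype effect was compared between stages by a two-sided normal test on the difference of log2 fold changes, with Benjamini-Hochberg adjustment. A run on simulated data drew normal errors from these same standard errors. It therefore checked the calculation only, and cannot show that the standard errors or the normal test hold for these data. Coordinates are 1-based, on the authors' build. The 54 gene lists and their members were chosen with earlier results of these data known. Named genes are those eligible by rank of change, list membership, usage distance, stage difference, run or listing at 0, and other genes named were chosen after their values were seen. Alternatives were a q of 0.01, FPKM minimums of 1 and 5, other pseudocounts, centring, unmerged and unshared entries, a 2-fold minimum, and calls through isoforms or start-site groups. Promoter sequences were not analysed here. Python 3.11.15, pandas 2.3.3 and scipy 1.17.1 were used.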

Additional observations from a re-analysis of the deposited data

Results flagged for a closer look

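The effect of the genotype, taken as the deposited log2 fold change with w1118 as the denominator, differed between stages for a number of the genes named above, by a two-sided normal test with Benjamini-Hochberg adjustment. Values are the effect in wandering larvae minus that at the later stage, and the comparisons with both later stages share the wandering samples. With a single pooled value per genotype, a check for samples that lie apart from their group was not possible.

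Against stationary larvae the effect was more negative for stress and immune peptides, by -6.33 ± 0.87 (SE) for TotC, -2.51 for TotA, -4.94 ± 1.08 for IM3, -2.01 for Dpt and -1.84 for Drs. Dpt was higher in trans-heterozygotes at both stages (log2 fold change 1.26 in wandering and 3.27 in stationary larvae). Hsp70Bb differed by -4.81 ± 0.44, the peroxidase gene Pxd by -2.38, CG42500 by -1.75, the mucin gene Muc68Ca by -1.46, the glue gene Sgs5 by -1.32 and Ddc by -1.22. It was more positive by 1.65 ± 0.37 for Cyp12d1-d and by 4.14 ± 0.89 for CG11350, whose effect was 4.59 in wandering and 0.45 in stationary larvae.

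Against prepupae it was more negative by -3.996 ± 1.08 for IM3, -2.47 for Hsp70Bb, -1.76 for TotA and -1.25 for CG42500. The tanning enzymes e and Ddc differed by -2.10 and -2.09, the glue genes Sgs5 and Sgs3 by -2.57 and -1.64 (q of the difference 0.0491 for Sgs3), and CG13722 and CG10570 by -1.81 and -1.62. Metabolic genes were more positive in wandering larvae, by 1.01 ± 0.26 for Eno, 1.16 ± 0.31 for Men and 2.19 ± 0.49 for Amy-p, and so were Jafrac1 (1.12) and PGRP-SC2 (1.43). The P450 genes Cyp12d1-p, Cyp9b2 and Cyp12d1-d differed by 2.02, 2.29 and 2.55, NT5E-2 by 1.80, and CG31233 and CG31343 by 2.81 and 2.98.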

How the results depend on the processing

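The number of higher genes changed with the processing: 250 became 165 at a q of 0.01, 161 with at least a 2-fold change, 93 through start-site groups and 92 through isoforms. At a q of 0.01 higher isoforms numbered 61, higher start-site groups 56, promoter tests 27, coding-sequence tests 14, and genes whose effect differed from stationary larvae or prepupae 43 and 65. Also at that q 0 meiotic arrest regulators were lower, 3 haemocyte genes were higher and 1 glycolysis gene was higher, against 1, 5 and 6 at a q of 0.05. Among entries with 1 symbol and no overlapping locus, 5 sperm aminopeptidases were lower, 3 haemocyte genes were higher, and the thick filament median was 0.92, against 0.10 over all entries. With a pseudocount of 0.1 FPKM the medians were -3.71 for late cup genes and -2.72 for testis paralogues. With 5 FPKM they were -0.98 for testis paralogues, -1.95 for sperm chromatin and tail genes and -3.16 for sperm aminopeptidases. The cause of these changes was not tested. For single named genes the alternatives were other pseudocounts and centring on the median of all tested genes (-0.01). A pseudocount cannot reverse a direction, and that median is too small to reverse a called gene named here. No conclusion on called genes is therefore drawn from these alternatives. Under centring 2 uncalled named genes changed direction. Of 54 list medians 4 changed sign among unshared entries, laminins and collagens to -0.04, peritrophic genes to -0.01, lysozymes and peptidoglycan recognition genes to -0.05 and ecdysone response genes to 0.14. No paired analysis was possible because the deposited tables hold 1 pooled value per genotype, and leaving out each replicate was not run for the same reason. What depth limits cannot be stated, since no counts were used.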
